A study of Mus musculus with 4 samples.

Results

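The long non-coding genes Gas5, Zfas1, Snhg1, Snhg3, Snhg5, Snhg6, Snhg8, Snhg12, Snhg15 and Snhg17 carry small nucleolar RNAs (snoRNAs) in their introns. These 10 genes were taken by name from the 48858 genes quantified, and the estimated counts of their 87 annotated transcripts were summed per gene. The study sequenced rRNA-depleted total RNA of naive CD4 T cells of mice, sorted by flow cytometry for TCRβ and CD4, without CD25, with high CD62L and low CD44. The double-knockout cells (DKO) came from mice with loxP-flanked Btg1 and Btg2 and Cre driven by CD4 regulatory sequences, which acts in the T cell lineage (2 libraries). The cells labelled wild type (WT) came from littermates with the same loxP-flanked alleles and no Cre (2 libraries); age and sex are not stated for either group. The question, from the series title, was how RNA levels differ in resting T cells that lack BTG1 and BTG2, related proteins that recruit the CCR4-NOT deadenylase, which shortens poly(A) tails.

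A snoRNA host gene is transcribed as a long precursor. Splicing yields an exonic RNA, and each snoRNA is released by trimming of its intron. Box C/D snoRNAs guide 2′-O-methylation and box H/ACA snoRNAs guide pseudouridylation of ribosomal and spliceosomal RNA. The spliced RNAs of this family code for little or no protein, many begin with a pyrimidine tract like that of ribosomal protein mRNAs, and several are degraded by nonsense-mediated decay when ribosomes engage them. Gas5 was first isolated as a transcript that accumulates in growth-arrested mouse fibroblasts.

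The start sites of the host genes are shown first, since a pyrimidine tract at the first transcribed base is what host genes and ribosomal protein genes are known to share. RefSeq promoters (GRCm38.p6) were matched for 9 of the 10 genes, with 11 start sites in all; Snhg6 was not matched. A run of at least 5 pyrimidines, C or T on the transcribed strand only, that began within 5 bases of the start site was found at 6 of these 11 start sites. The same search found it at 7238 of 32851 promoters of all genes (22.0%) and at 24 of 68 promoters of cytosolic ribosomal protein genes (35.3%). Gas5 and Snhg17 each also had a start site without such a run, and Snhg5, Snhg15 and Zfas1 had none with it. The run began at the start site in Snhg17, 1 base before it in Gas5 and Snhg8 and 3 before it in Snhg12. In Snhg3 it began 2 bases after the start site and in Snhg1 4 bases after. The 30 bases before and after each of the 6 start sites with a run follow, with the run in capitals.
Gas5 (chr1:161035136-161035195, plus strand): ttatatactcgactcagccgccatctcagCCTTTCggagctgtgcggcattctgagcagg
Snhg1 (chr19:8723457-8723516, plus strand): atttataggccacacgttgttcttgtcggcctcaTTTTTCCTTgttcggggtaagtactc
Snhg8 (chr3:123508307-123508366, minus strand): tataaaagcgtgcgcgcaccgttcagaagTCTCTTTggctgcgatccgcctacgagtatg
Snhg12 (chr4:132308648-132308707, plus strand): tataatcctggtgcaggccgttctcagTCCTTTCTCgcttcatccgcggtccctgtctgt
Snhg17 (chr2:158361480-158361539, minus strand): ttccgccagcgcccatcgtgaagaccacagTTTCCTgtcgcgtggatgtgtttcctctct
Snhg3 (chr4:132353657-132353716, minus strand): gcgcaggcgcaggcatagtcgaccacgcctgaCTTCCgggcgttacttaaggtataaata

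The genes hold 36 annotated snoRNA genes at 34 loci, as Snord80 and Snora16a are each annotated by a pair of overlapping entries. The snoRNAs shown are those with the most counts of each host, with Snora61 and Snord12 added because their hosts' isoforms hold them. Their sequences are those of GENCODE M21 (GRCm38). Capitals mark box C (TGATGA) near the 5′ end and box D (CTGA) near the 3′ end of the C/D snoRNAs, and ACA near the 3′ end of the H/ACA snoRNAs. Snord22 had no exact match to TGATGA near its 5′ end. No sequence is shown for Snhg17, whose 3 annotated snoRNAs had at most 7 counts in any library.
Gm22357, within Gas5 (chr1:161036057-161036139, plus strand): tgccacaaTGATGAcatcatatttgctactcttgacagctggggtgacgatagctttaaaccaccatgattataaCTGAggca
Snord22, within Snhg1 (chr19:8725866-8725991, plus strand): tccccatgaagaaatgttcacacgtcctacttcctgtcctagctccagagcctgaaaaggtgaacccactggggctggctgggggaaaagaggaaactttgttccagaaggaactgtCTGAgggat
Snord87, within Snhg6 (chr1:9942463-9942549, minus strand): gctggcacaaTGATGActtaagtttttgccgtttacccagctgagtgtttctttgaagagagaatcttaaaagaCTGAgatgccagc
Snord99, within Snhg12 (chr4:132310691-132310764, plus strand): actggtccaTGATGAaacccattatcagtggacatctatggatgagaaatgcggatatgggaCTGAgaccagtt
Snora61, within Snhg12 (chr4:132310240-132310369, plus strand): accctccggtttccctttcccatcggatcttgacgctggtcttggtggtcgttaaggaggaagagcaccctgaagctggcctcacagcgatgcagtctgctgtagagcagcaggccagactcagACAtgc
Gm23201, within Zfas1 (chr2:167064998-167065086, plus strand): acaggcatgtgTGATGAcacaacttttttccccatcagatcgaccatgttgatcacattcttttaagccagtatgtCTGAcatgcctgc
Snord12, within Zfas1 (chr2:167065276-167065365, plus strand): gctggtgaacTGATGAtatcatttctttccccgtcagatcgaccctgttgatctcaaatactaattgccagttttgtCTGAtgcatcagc
Snora24, within Snhg8 (chr3:123507937-123508066, minus strand): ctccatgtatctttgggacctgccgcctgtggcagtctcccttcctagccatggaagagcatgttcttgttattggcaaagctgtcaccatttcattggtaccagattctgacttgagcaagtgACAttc
Snora9, within Snhg15 (chr11:6528033-6528165, minus strand): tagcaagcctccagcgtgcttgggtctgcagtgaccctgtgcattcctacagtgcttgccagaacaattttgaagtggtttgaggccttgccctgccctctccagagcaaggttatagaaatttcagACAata
Snora73b, within Snhg3 (chr4:132352322-132352526, minus strand): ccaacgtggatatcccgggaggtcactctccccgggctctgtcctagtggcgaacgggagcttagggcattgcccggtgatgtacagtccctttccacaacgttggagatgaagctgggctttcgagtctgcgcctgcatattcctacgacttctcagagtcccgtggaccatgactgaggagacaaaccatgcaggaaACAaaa
Snord50b, within Snhg5 (chr9:88521797-88521868, minus strand): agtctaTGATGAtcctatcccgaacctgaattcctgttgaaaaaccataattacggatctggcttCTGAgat

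The libraries held 13889894 to 17827631 estimated counts. Btg1 had 103 and 125 counts in the DKO libraries, against 7378 and 5443 in the WT libraries. Btg2 had 5 and 7 counts in DKO, against 1295 and 1067 in WT. The 6 markers of CD4 T cells summed to 1801 and 1798 CPM (counts scaled to a common library size) in DKO and 1403 and 1740 CPM in WT, and the 4 naive markers to 2098 and 1989 CPM in DKO and 1909 and 2278 CPM in WT. The 13 markers of other cells summed to 17.6 and 30.7 CPM in DKO and 14.9 and 14.0 CPM in WT. The NK cell gene Ncr1 was at 0 counts in every library, which allows up to 0.168 to 0.216 CPM per library. Klrb1c, also of NK cells, had 4 counts in DKO replicate 1 and 0 in every other library. Of the 5 markers tested, 3 had both DKO libraries above both WT libraries and 0 below, beside 19.8% above over all genes. Cd8b1 of CD8 T cells had 8.58 and 13.0 CPM in DKO and 6.78 and 7.46 CPM in WT, while Cd8a had at most 6 counts. The B cell gene Cd79a had 1.06 and 1.30 CPM in DKO and 0.721 and 0.0867 CPM in WT. With 18 and 28 counts in DKO and 10 and 1 in WT, it would not have been tested without its DKO libraries. Its place above WT therefore adds no support. Foxp3, the factor that defines regulatory T cells, was at 5.15 and 10.5 CPM in DKO and 1.80 and 2.52 CPM in WT. The mean fragment length implied by the deposited effective lengths was 133 and 142 bases in DKO replicates 1 and 2 and 124 and 120 bases in WT replicates 1 and 2. The part of cell mixture and fragment length in the values that follow was not tested. In such bulk samples, fewer cells of a type and less RNA per cell cannot be told apart.

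All 10 host genes were lower in both DKO libraries than in both WT libraries, and none passed the test across all genes. Snhg3 (2 and 8 counts in DKO, 12 and 15 in WT) passed the low-count filter only through its WT libraries. Its place below WT therefore adds no support, here or in the later counts. CPM values use library sizes scaled by TMM, which assumes that most genes do not differ. On that scale the median log2 fold change, DKO minus WT, was −0.87 over the 10 genes and −0.01 over the 12863 genes tested. Both DKO libraries lay below both WT libraries for 18.8% of all genes tested. With p-values adjusted over all genes tested (edgeR, quasi-likelihood F test, Benjamini-Hochberg method), 0 of the 10 genes had an adjusted p under 0.05, while 0.124% of all genes did in either direction and 0.07% did with a lower level in DKO. At an unadjusted p under 0.05, 6 of the 10 genes were lower, against 560 lower and 492 higher genes of all tested. DESeq2 called 2 of the 10 (Snhg1 and Snhg17), and 1.29% of all genes to which it gave an adjusted p. With 2 libraries against 2, an exact two-sided permutation test of a single value cannot give a p below 0.33.

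**Figure D1:**
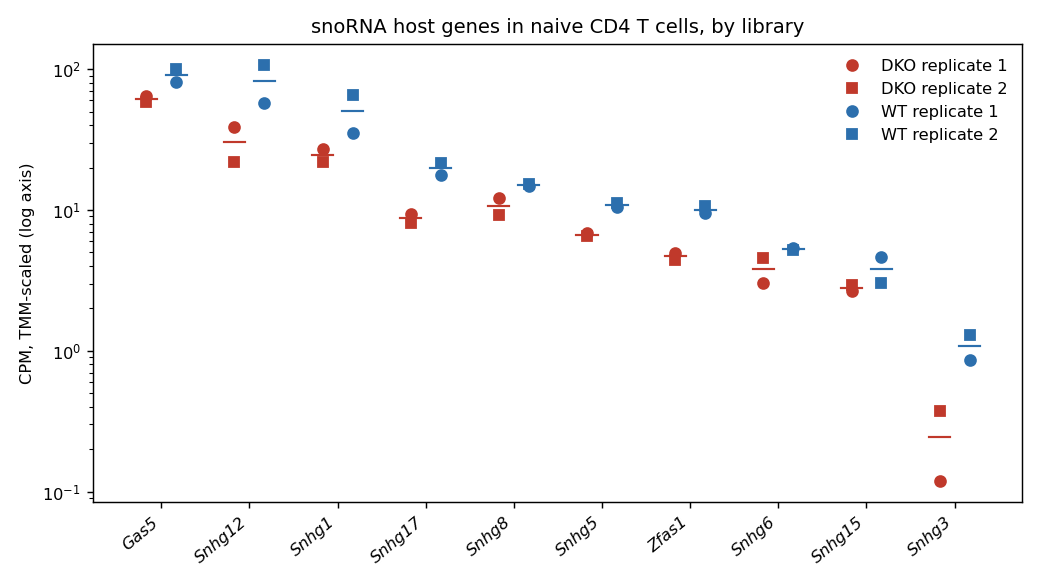
TMM-scaled CPM (log axis) of the 10 host genes in the 2 DKO (red, left of each pair) and 2 WT (blue) libraries; points are libraries and bars are group means. Each gene has both DKO points below both WT points, with the closest approach in Snhg15 (2.92 CPM in DKO replicate 2 and 3.04 CPM in WT replicate 2).

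Snhg17 had the smallest p of the 10. It lies on chromosome 2 (158353700 to 158361580, minus strand). Its CPM was 9.35 and 8.12 in DKO and 17.8 and 21.7 in WT, with counts of 158 and 175 against 247 and 250. The groups were well apart, and the DKO level was 44.2% of WT (log2 fold change −1.18, SE 0.19, adjusted p = 0.077 by edgeR). The adjusted p was 0.0107 when only protein-coding genes and the 10 host genes were tested and 0.00935 without WT replicate 1, but 0.0827 to 0.223 without each of the other libraries. It was 0.356 with an effective length offset (log2 fold change −0.91), 0.339 by limma on log2(TPM + 0.5) and 0.667 with scaling to RNA polymerase III transcripts.

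Zfas1, whose name stands for Znfx1 antisense RNA, starts next to Znfx1 and runs the other way (chromosome 2, 167062934 to 167065862, plus strand). Its CPM was 4.97 and 4.41 in DKO and 9.52 and 10.6 in WT, so the spread within a group was small beside the gap (log2 fold change −1.10, SE 0.23, adjusted p = 0.162 by edgeR). Its counts were 84 and 95 in DKO and 132 and 122 in WT. Znfx1, which encodes a zinc finger helicase and overlaps Zfas1 on the other strand, lay in the opposite direction at 73.5 and 63.4 CPM in DKO and 52.1 and 59.1 CPM in WT (log2 fold change 0.30, adjusted p = 0.648 by edgeR). The library kit keeps strand, but the authors' strand setting is not given in the sources used here, so reads of overlapping genes on opposite strands cannot be told apart. Of the 31-base words in Zfas1 transcripts, 13.1% also occur in other genes that are not snoRNAs.

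Gas5, named for growth arrest, lies on chromosome 1 (161034422 to 161038539, plus strand) and overlaps Zbtb37 on the other strand. Its transcripts had 64.9 and 58.0 CPM in DKO and 80.8 and 100.5 CPM in WT, a DKO level of 67.8% of WT (log2 fold change −0.56, SE 0.15, adjusted p = 0.300 by edgeR). The raw counts were 1097 and 1250 in DKO and 1121 and 1159 in WT, so the groups overlapped before scaling for library size. None of its 31-base words occurs in a gene other than a snoRNA. Without WT replicate 1, edgeR called 3 of the 10 genes, Gas5 (log2 fold change −0.71, adjusted p = 0.0397), Snhg1 (−1.43, 0.00222) and Snhg17 (−1.32, 0.00935), and 1.18% of all genes tested; without any other single library it called 0.

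Snhg1 and Snhg12 varied most between the WT libraries. Snhg1, the host of the U22 snoRNA (chromosome 19, 8723475 to 8726443, plus strand), had 27.1 and 21.9 CPM in DKO and 35.3 and 65.8 CPM in WT (log2 fold change −1.04, SE 0.32, adjusted p = 0.501 by edgeR). Snhg12, which hosts Snora16a, Snora44, Snora61 and Snord99 (chromosome 4, 132308623 to 132311024, plus strand), had 39.0 and 21.8 CPM in DKO and 57.2 and 107.3 CPM in WT (log2 fold change −1.44, SE 0.49, adjusted p = 0.618 by edgeR). In both genes WT replicate 2 was the high library. Without it the log2 fold changes were −0.51 for Snhg1 and −0.90 for Snhg12.

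The other 5 genes lay lower by varying amounts. Snhg5, the host of the paired Snord50a and Snord50b on chromosome 9, had 6.86 and 6.49 CPM in DKO and 10.5 and 11.3 CPM in WT (log2 fold change −0.71, SE 0.21, adjusted p = 0.349 by edgeR). Snhg8, the host of Snora24 on chromosome 3, had 12.2 and 9.18 CPM in DKO and 14.9 and 15.2 CPM in WT (log2 fold change −0.49, SE 0.20, adjusted p = 0.578 by edgeR). For both genes, as for all 10, the groups did not overlap. Snhg6, the host of Snord87 on chromosome 1, had 3.02 and 4.59 CPM in DKO and 5.41 and 5.20 CPM in WT. Snhg15, the host of Snora9 on chromosome 11, had 2.66 and 2.92 CPM in DKO and 4.62 and 3.04 CPM in WT. For Snhg6 (log2 fold change −0.47, SE 0.32) and Snhg15 (−0.46, SE 0.37) the gap between the nearest libraries was smaller than the spread within a group. The same held for Snhg8, Gas5, Snhg1 and Snhg12. Snhg6 was at −0.19 without DKO replicate 1 and −0.79 without DKO replicate 2, while leaving out WT replicate 1 put Snhg15 at −0.12 and leaving out WT replicate 2 put it at −0.71. Snhg3, the host of the Snora73 pair on chromosome 4, was close to the counting floor with 2 and 8 counts in DKO and 12 and 15 in WT (log2 fold change −2.07, SE 0.95, adjusted p = 0.634 by edgeR). Its value is uncertain, since 68.6% of its 31-base words also occur in other genes, most of them in Gm17300 on the opposite strand.

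The direction rested on the scale. With library totals in place of TMM factors, the median of all genes moved to 0.33 and 8 of the 10 host genes still had both DKO libraries below both WT libraries, beside 5.69% of all genes tested; Snhg6 and Snhg15 overlapped. Under TMM, 5 small RNAs made by RNA polymerase III were themselves lower in DKO (median log2 fold change −0.93). Both DKO libraries lay below both WT libraries for all 5 of them, beside 18.8% of all genes tested. Scaling to these 5 RNAs put the median log2 fold change at 0.08 for the host genes and at 0.90 for all genes. Gas5 (log2 fold change 0.38), Snhg5 (0.22), Snhg6 (0.48), Snhg8 (0.40) and Snhg15 (0.42) then lay above 0, and Snhg3 and Snhg12 alone kept both DKO libraries below both WT libraries, beside 1.90% of all genes. Taken relative to the median of all genes, the host gene median was −0.86 under TMM, −0.85 with library totals and −0.82 with polymerase III scaling.

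On the deposited TPM scale, which divides by effective length and allows levels to be compared between genes, the differences were smaller. Gas5 was at 12.6 ± 0.247 TPM in DKO and 13.0 ± 0.933 TPM in WT (SD, n = 2 each for all TPM values), with overlapping libraries. Snhg12 was at 7.65 ± 2.31 TPM in DKO and 15.8 ± 4.98 TPM in WT, which puts it below Gas5 in DKO and near it in WT. Snhg1 followed with 3.10 ± 0.313 TPM in DKO and 4.40 ± 2.54 TPM in WT, then Snhg8 with 2.69 ± 0.250 TPM in DKO and 2.92 ± 0.190 TPM in WT. The levels of these neighbours did not differ beyond the spread of Snhg1 in WT. Snhg6 (1.03 ± 0.455 TPM in DKO and 1.05 ± 0.0826 TPM in WT), Snhg5 (0.985 ± 0.0406 TPM in DKO and 1.18 ± 0.0177 TPM in WT), Zfas1 (0.649 ± 0.0664 TPM in DKO and 1.17 ± 0.119 TPM in WT) and Snhg15 (0.650 ± 0.175 TPM in DKO and 0.631 ± 0.243 TPM in WT) came next in DKO. Snhg17 was at 0.425 ± 0.0447 TPM in DKO and 0.606 ± 0.103 TPM in WT, and Snhg3 was lowest at 0.103 ± 0.0838 TPM in DKO and 0.275 ± 0.0962 TPM in WT. In TPM, 5 of the 10 genes (Zfas1, Snhg3, Snhg5, Snhg12 and Snhg17) had both DKO libraries below both WT libraries, beside 5.46% of all genes tested.

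The isoforms of the host genes fall into 2 classes, as many annotated transcripts retain an intron with its snoRNA. Transcripts with at least 15 bases of an annotated snoRNA in an exon were called snoRNA-holding and can draw reads that come from the snoRNA itself or from unspliced precursor. The snoRNA-holding share of a gene's counts was 88.7 and 93.3% in DKO and 97.5 and 96.1% in WT for Snhg12, and 96.1 and 89.4% in DKO and 100 and 97.2% in WT for Snhg17. For Gas5 it was 51.8 and 56.5% in DKO and 62.5 and 60.3% in WT. In these 3 genes the share was lower in both DKO libraries. In Zfas1 it was higher, at 46.8 and 41.4% in DKO and 30.2 and 28.3% in WT, and likewise in Snhg15 (29.4 and 33.2% in DKO, 18.8 and 15.1% in WT) and Snhg8 (42.9 and 43.8% in DKO, 40.3 and 33.0% in WT). The libraries overlapped in Snhg1, Snhg3 and Snhg5, and no quantified Snhg6 transcript holds a snoRNA. These shares were not tested, and the same measure was not computed over all genes, so non-overlap here has no background beside it. With 2 libraries against 2, an exact two-sided permutation test of a share cannot give a p below 0.33.

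**Figure D2:**
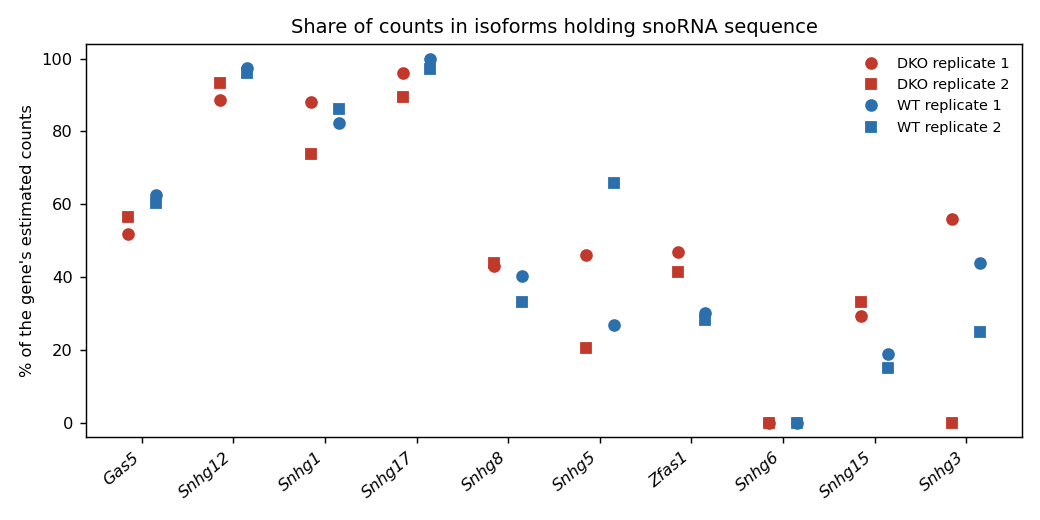
Percent of each host gene's estimated counts assigned to isoforms with snoRNA sequence in an exon, in the 2 DKO (red, left) and 2 WT (blue) libraries. Snhg12, Snhg17 and Gas5 show lower DKO shares, and Zfas1, Snhg15 and Snhg8 higher ones, which were not tested.

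When the snoRNA-holding transcripts were left out, 8 of the 10 genes passed the low-count filter. Their median log2 fold change was −0.57, against −0.63 for the same 8 genes with all transcripts. Zfas1, Snhg8 and Snhg15 (−0.73) lay further below 0 than with all transcripts, and Gas5, Snhg1 (−0.76), Snhg5 and Snhg12 lay nearer to or above it. Both DKO libraries lay below both WT libraries for 5 of these 8, beside 18.7% of all genes in that fit, and 0 had an adjusted p under 0.05 by edgeR (2 at an unadjusted p under 0.05), beside 0.124% of all genes. Zfas1 without snoRNA-holding transcripts had 2.67 and 2.60 CPM in DKO and 6.65 and 7.65 CPM in WT (log2 fold change −1.44, SE 0.28, adjusted p = 0.146 by edgeR), further apart than for the whole gene. Snhg8 had 6.93 and 5.16 CPM in DKO and 8.89 and 10.2 CPM in WT (log2 fold change −0.66). Gas5 (−0.31), Snhg5 (−0.38) and Snhg12 (0.05) overlapped between the groups.

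Snhg12 showed the widest difference between the classes. Its snoRNA-holding transcripts had 34.6 and 20.4 CPM in DKO and 55.8 and 103.1 CPM in WT (log2 fold change −1.53, SE 0.45, adjusted p = 0.543 by edgeR), while the others had 4.39 and 1.44 CPM in DKO and 1.45 and 4.17 CPM in WT (0.05, SE 0.68). A single transcript of 2 exons held 72.1% of the mean count of the gene, and its 509 bases include the whole of Snora61 as printed among the snoRNA sequences. It had 415 and 293 counts in DKO and 581 and 991 in WT, and Snora61 had 678 and 440 in DKO and 950 and 1935 in WT. The isoform's count was 61.2 and 66.6% of that of the snoRNA in DKO and 61.2 and 51.2% in WT. The division of reads between the transcript and the snoRNA is an estimate of the authors' quantification, so neither count is independent of the other.

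For Gas5 the snoRNA-holding class had 33.6 and 32.8 CPM in DKO and 50.5 and 60.7 CPM in WT (log2 fold change −0.74, SE 0.15, adjusted p = 0.137 by edgeR). The class without snoRNAs had 529 and 543 counts in DKO and 420 and 460 in WT, overlapping on the CPM scale with DKO replicate 1 above WT replicate 1, or 28.3 ± 4.32 CPM in DKO and 35.2 ± 6.82 CPM in WT (SD, n = 2 each). For Snhg17 nearly all counts were in the snoRNA-holding class, although its snoRNAs were hardly detected. That class had 8.99 and 7.24 CPM in DKO and 17.8 and 21.1 CPM in WT (−1.26, SE 0.20, adjusted p = 0.0692 by edgeR). Its other transcripts had 6 and 19 counts in DKO and 0 and 7 in WT. They did not pass the low-count filter, and the groups overlapped. Over all 8 genes tested in this class the median was −0.92, the 2 groups did not overlap, with DKO lower, for 5, beside 18.7% of all genes in that fit.

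**Figure D3:**
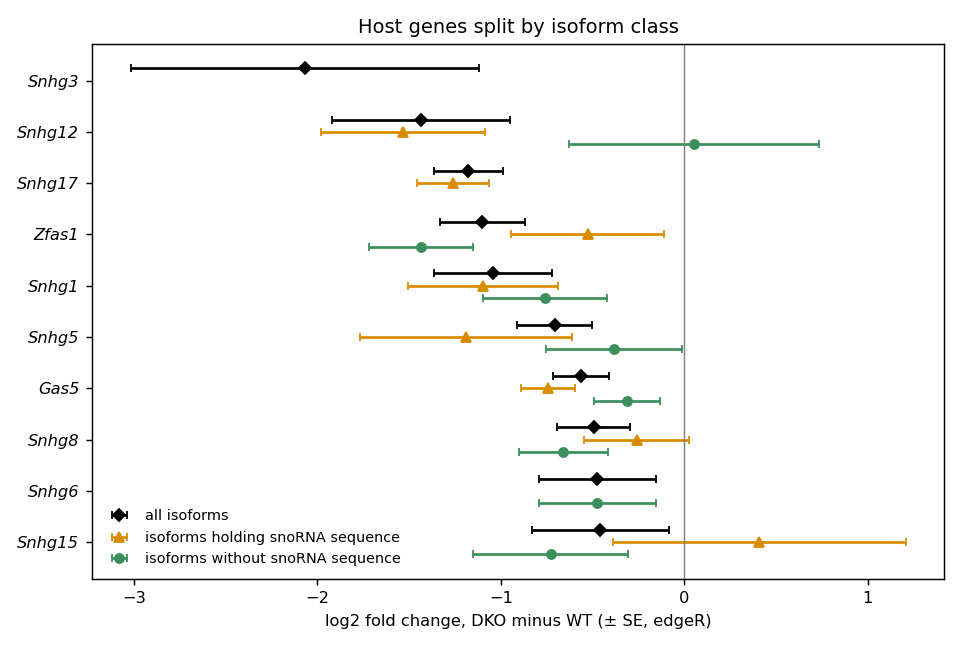
Log2 fold change, DKO minus WT, with its standard error from edgeR, for each host gene as a whole (black), for its isoforms with snoRNA sequence (orange) and for those without (green). Classes that did not pass the low-count filter are not drawn; Snhg12 has −1.53 with and 0.05 without snoRNA sequence, and Zfas1 −0.53 and −1.44.

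Single isoforms gave no call. Of the 87 transcripts, 42 passed the filter in a fit on transcripts, 0 had an adjusted p under 0.05 by edgeR, beside 0.0073% of all transcripts tested, and 7 were lower and 0 higher at an unadjusted p under 0.05, against 653 lower and 716 higher of the 27379 transcripts tested. Both DKO libraries lay below both WT libraries for 20 of the 42, beside 16.3% of all transcripts. The Snhg1 isoform with retained introns that holds Gm24452 alone had 0 counts in both DKO libraries and 13.3 and 13.6 in WT. It could pass the filter only through its WT libraries, so its place below WT adds no support to these counts. Snhg17-209, an unspliced 3144-base transcript, had the smallest adjusted p with 42 and 44 counts in DKO and 102 and 79 in WT (log2 fold change −1.63, SE 0.38, adjusted p = 0.834 by edgeR). Gas5-222, an isoform with retained introns that holds Gm22357, Gm23212 and Snord78, had 92 and 39 counts in DKO and 139 and 385 in WT, while Gas5-224, the spliced form with 12 exons, had 255 and 266 in DKO and 189 and 126 in WT. On the CPM scale Gas5-224 overlapped between the groups, at 15.3 and 12.4 CPM in DKO and 13.4 and 11.1 CPM in WT. Gas5-218, which also retains introns and holds Gm22357, Gm23212 and Snord78, had 244 and 393 counts in DKO and 278 and 128 in WT (0.09, SE 0.34). The spliced Gas5-209 had 162 and 159 counts in DKO and 139 and 205 in WT (−0.70, SE 0.38). Neither the spliced isoforms of Gas5 nor those with retained introns thus lay to one side. The spliced Zfas1-205 had 31 and 52 counts in DKO and 60 and 88 in WT (log2 fold change −1.48, SE 0.51), and the spliced Snhg8-201 had 117 and 111 in DKO and 117 and 117 in WT (−0.61, SE 0.32).

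The snoRNAs of these introns also lay lower in DKO, and their difference from their hosts was not tested. Of the 36 snoRNA genes, 27 passed the low-count filter, with a median log2 fold change of −1.89. By edgeR, 0 had an adjusted p under 0.05, beside 0.124% of all genes tested. At an unadjusted p under 0.05, 5 were lower and 0 higher, against 560 lower and 492 higher of all genes tested. Gm24452 of Snhg1 (5 and 2 counts in DKO, 28 and 23 in WT) is among these 5. It passed the filter only through its WT libraries, so its low DKO level adds no support. Both DKO libraries lay below both WT libraries for 20 of the 27, beside 18.8% of all genes tested and 121 of the 169 other tested snoRNAs (median −1.60). DESeq2 called 1, Gm24453 of Snhg1, beside 1.29% of all genes to which it gave an adjusted p. The median was −0.83 without WT replicate 2, when edgeR called 1 (Snora16a) and 0.556% of all genes, and −2.48 without WT replicate 1, when it called 6 and 1.18% of all genes. Without DKO replicate 1 it called 1, Snora73b, and 0.366% of all genes.

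The snoRNA with the most counts was Gm22357 of Gas5, a C/D snoRNA, with 237 and 124 CPM in DKO and 319 and 647 CPM in WT (log2 fold change −1.42, SE 0.55, adjusted p = 0.648 by edgeR). Snord87 of Snhg6 had 100.5 and 46.3 CPM in DKO and 137 and 406 CPM in WT (−1.89, SE 0.85), although Snhg6 itself was among the hosts with the smallest difference. Snord22 of Snhg1, the U22 RNA that takes part in maturation of the small-subunit rRNA in Xenopus, had 123 and 67.8 CPM in DKO and 132 and 325 CPM in WT (−1.26, SE 0.66). In each of these 3 snoRNAs DKO replicate 2 was the lowest library and WT replicate 2 the highest.

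Snord99 of Snhg12 had 53.1 and 12.9 CPM in DKO and 84.4 and 306 CPM in WT (log2 fold change −2.57, SE 1.26). The H/ACA snoRNA Snora61 of the same host had 40.1 and 20.4 CPM in DKO and 68.5 and 168 CPM in WT (−1.97, SE 0.72). Snora73b of Snhg3, one of a pair that encodes the U17 RNA of pre-rRNA processing, had 26.9 and 11.7 CPM in DKO and 52.9 and 84.0 CPM in WT (−1.83, SE 0.56). For these 3 RNAs the groups did not overlap. Snora44 of Snhg12, Snora24 of Snhg8, Snord47 and Gm25789 of Gas5 and both Snord50 copies of Snhg5 overlapped, as DKO replicate 1 exceeded WT replicate 1. The 2 entries for Snora16a summed to 27.3 and 13.3 CPM in DKO and 34.1 and 99.7 CPM in WT.

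**Figure D4:**
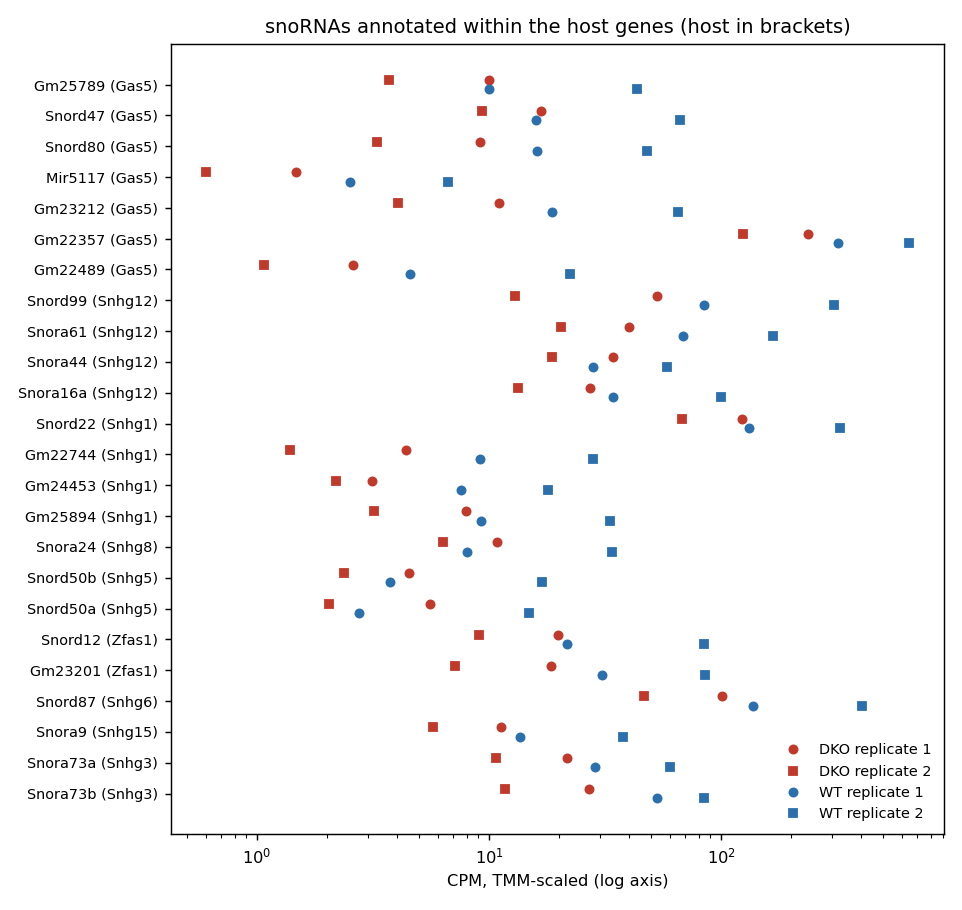
TMM-scaled CPM (log axis) of the snoRNA loci within the host genes that reached 50 counts in a library, with the 2 DKO libraries in red (upper of each row) and the 2 WT libraries in blue. In most rows DKO replicate 2 is lowest and WT replicate 2 highest, as for Gm22357 (237 and 124 CPM in DKO, 319 and 647 CPM in WT).

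The libraries followed the same order in many of these RNAs, a pattern chosen for counting after the values were seen. DKO replicate 2, DKO replicate 1, WT replicate 1 and WT replicate 2 stood in rising order for 7 of the 10 host genes, 19 of the 27 tested snoRNAs within them, 107 of the 169 other snoRNAs and 57 of 79 cytosolic ribosomal protein genes, against 6.55% of all genes tested and 43 of 1067 other long non-coding genes. The implied fragment length decreased along the same order, with 142 and 133 bases in DKO replicates 2 and 1 and 124 and 120 bases in WT replicates 1 and 2, and its part in these values was not tested. Summed over the family, host RNA was at 170 and 138 CPM in DKO and 237 and 342 CPM in WT. The snoRNAs summed to 803 and 388 CPM in DKO and 1063 and 2768 CPM in WT, or 4.72 and 2.81 snoRNA counts per host count in DKO and 4.49 and 8.10 in WT. The groups did not overlap for the sums but did for this ratio.

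Genes related to the family by name, structure or function differed in how far they lay in the same direction. Of 6 other Snhg genes quantified, 4 were tested, with a median log2 fold change of −0.95. Both DKO libraries lay below both WT libraries for 3 of these 4, beside 18.8% of all genes tested. Snhg14, an imprinted host of clustered snoRNAs, had 1.01 and 1.67 CPM in DKO and 6.06 and 3.04 CPM in WT (−1.75, SE 0.49, adjusted p = 0.317 by edgeR). The 1067 other long non-coding genes tested had a median of −0.27, and both DKO libraries lay below both WT libraries for 198 (18.6%). Protein-coding genes that hold a snoRNA within their span, ribosomal protein genes left out, numbered 182 tested, and had a median of −0.05, with DKO below WT in all pairings of libraries for 35 (19.2%). Among these, Eif4a2, which encodes a translation initiation helicase, had 145 and 122 CPM in DKO and 218 and 218 CPM in WT (−0.71, SE 0.15, adjusted p = 0.161 by edgeR). By edgeR, 0 genes of these lists had an adjusted p under 0.05, except 2 of the other long non-coding genes, both higher. Over all genes tested, 0.124% had an adjusted p under 0.05 by edgeR.

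Cytosolic ribosomal protein genes, known for start sites with a pyrimidine tract, had a median log2 fold change of −0.52 over 79 tested genes. Both DKO libraries lay below both WT libraries for 58 of them and above for 0, and 0 had an adjusted p under 0.05 by edgeR. Of all genes tested, 18.8% lay below and 19.8% above in this way, and 0.124% had an adjusted p under 0.05. At an unadjusted p under 0.05, 49 of the ribosomal protein genes were lower, against 560 lower and 492 higher of all genes tested. Rpl12, of the large subunit, had 86.7 and 66.6 CPM in DKO and 151 and 154 CPM in WT (−0.99, SE 0.16, adjusted p = 0.0749 by edgeR). Rpl5, which escorts the small 5S rRNA, had 208 and 152 CPM in DKO and 351 and 448 CPM in WT (−1.15, SE 0.20). The proteins that assemble with snoRNAs did not lie to either side. The 19 genes of the snoRNP core and its assembly factors had a median of 0.00, with the DKO libraries below both WT libraries for 1 and above for 2. Naf1, an H/ACA assembly factor, had 6.92 and 7.05 CPM in DKO and 4.62 and 4.16 CPM in WT (0.67, SE 0.25, adjusted p = 0.528 by edgeR). The 10 factors of nonsense-mediated decay had a median of −0.11, with the DKO libraries below both WT libraries for 4 and above for 2. In these last lists 0 genes had an adjusted p under 0.05 by edgeR and 1, Naf1, had an unadjusted p under 0.05.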

How the data were processed

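Per the submitters' processing notes, which name kallisto with mm10 and GRCm38, the authors quantified reads against annotated transcripts. Its version, its strand setting and the annotation behind it were not stated. The deposited estimated counts per transcript are not scaled for depth or length, and the deposited TPM values are scaled by the authors for effective length to a common sum, per the file headers. Of 126782 transcripts, 125182 were joined by identifier to GENCODE M21 (GRCm38); those without a gene held 0.822 to 0.852% of the counts and were left out. Estimated counts were summed to genes, or kept per transcript, and rounded. The test was that of edgeR 4.0.16 under R 4.3.3 (filterByExpr, TMM, robust quasi-likelihood F test on genotype, Benjamini-Hochberg adjustment at 0.05 over all features tested). SE is the log2 fold change over the square root of F. The common biological coefficient of variation was 0.22 for genes and 0.629 for transcripts. DESeq2 1.42.0, limma 3.58.1 on log2(TPM + 0.5) or log2(TPM + 0.1), other scalings, a replicate block and leaving out each library were alternatives. The gene test was tested on simulated data with a single common dispersion. There it called 31 of 98 genes with a log2 fold change of size 1 and 102 of 102 with size 2. It also called 10 of 12200 unchanged genes. The labels speak of pairs of mice but do not tie libraries to animals further, so p-values measure the spread between these libraries. Intervals and floors (3 counts) cover counting error only.

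The members and lists were chosen with earlier results of these data known. Genes named are the 10 hosts, isoforms with at least 10% of their gene's mean count, snoRNAs of the hosts that passed the filter and up to 4 genes with the smallest p of each related list; other names were chosen after their values were seen. Sequences are from RefSeq (GRCm38.p6 promoters) and GENCODE M21 transcripts, read by identifier. Words of 31 bases were compared on both strands over all GENCODE M21 transcripts.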

Additional observations from a re-analysis of the deposited data

How the results depend on the processing

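All medians here are log2 fold changes relative to the median of all genes tested in the same setting. The host gene median was −0.86 and ranged over −0.99 to −0.67 on leaving out single libraries. It was −0.77 with an effective length offset, −0.35 and −0.57 on log2(TPM + 0.5) and log2(TPM + 0.1), −0.24 on log2(TPM + 0.5) without a filter and −0.55 with snoRNA-free isoforms only. Host genes called, 0 in the first fit, were 2 by DESeq2, 3 without the low-count filter, 2 when protein-coding and host genes were tested alone and 0 to 3 when a library was left out. Both DKO libraries lay below both WT libraries for 2 of 10 with polymerase III scaling and 5 of 10 in TPM. The snoRNA-free median of −0.55 was −0.19 on log2(TPM + 0.5) and −0.0777 there without a filter, and 1 snoRNA-free host, Zfas1, was called without the low-count filter and 1 with protein-coding and host genes only. The snoRNA median of −1.87 lay between −2.53 and −0.83 when a library was left out, and 0 to 6 were called. Calls of snoRNAs were 1 by DESeq2, 1 with total counts, 4 without the low-count filter and 5 with polymerase III scaling. Calls of isoforms were 3 without the low-count filter. Calls over all genes rose too, from 7 higher and 9 lower of 12863 in the first fit. They were 42 and 126 by DESeq2, 194 and 66 with total counts and 472 and 22 with polymerase III scaling. Without the low-count filter they were 141 and 254 of 25924 genes, and 369 and 469 of 67949 transcripts. With protein-coding and host genes only they were 35 and 18 of 10682. The cause of each change was not tested.

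The deviations of genes from their group mean correlated at −0.31 between WT replicate 1 and DKO replicate 1. With 2 libraries a group the crossed value is 0.31 by construction. The correlation does not settle whether the replicate numbers mark pairs, which the labels do not say. With the replicate block 1 host gene (Snhg17), 1 snoRNA-free host and 1 snoRNA were called, as were 53 higher and 90 lower of all genes (7 and 9 without the block). With crossed numbers, chosen after seeing the data, these were 5, 1 and 22, with 136 higher and 384 lower of all genes. The replicate block put the snoRNP list median, 0.02 otherwise, at −0.00275, and crossed numbers at −0.00032.

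Lists near 0 changed sign. The snoRNP list ranged over −0.176 to 0.165 on leaving out single libraries (−0.0884 without DKO replicate 1, −0.176 without WT replicate 1) and was at −0.015 with protein-coding and host genes only. The decay factor list, at −0.10, ranged over −0.131 to 0.0043 on leaving out single libraries (above 0 without DKO replicate 2) and was at 0.0116 with the length offset, and 0.11, 0.0886 and 0.23 in the TPM fits. Protein-coding hosts, at −0.04, ranged over −0.0684 to 0.0354 (above 0 without DKO replicate 2) and were at 0.0266 and 0.14 on log2(TPM + 0.5) with and without a filter. Snhg15 was at 0.0139 on unfiltered log2(TPM + 0.5). Scaling and depth limit these values: at 3 counts a gene had 0.168 to 0.216 CPM, and Snhg3 was near that floor. Ribosomal protein genes, at −0.51, ranged over −0.74 to −0.29, lowest without WT replicate 1 and nearest 0 without WT replicate 2.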
